A study of Mus musculus with 10 samples.

Results

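The enzymes of the folate and methionine cycles were taken by gene name, as Mtr, Mtrr, Bhmt, Mthfd1, Shmt1, Mat2a, Ahcy and Cbs. A probe set counted as a member where its only annotated gene symbol was one of these. That gave 8 probe sets for 6 of the 8 genes, among 21789 probe sets with a single symbol for 19938 genes. Mtr, Mtrr, Mthfd1, Shmt1 and Cbs had 1 probe set each and Bhmt had 3. The 3 probe sets that carry Ahcy also carry Gm4737, a near copy, and were not used. Mat2a, the methionine adenosyltransferase that makes S-adenosylmethionine in most tissues, had no probe set under its symbol and was not analysed here. The members thus cover the making of methionine and the exit of homocysteine, but not the steps between methionine and homocysteine.

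The folate cycle carries single carbon units on tetrahydrofolate, loaded mainly from serine. The methionine cycle receives one of them when methionine synthase turns homocysteine back into methionine, and it supplies S-adenosylmethionine, the methyl donor for DNA, histones, lipids and neurotransmitters. Ethanol is known to disturb this pathway in liver, where folate uptake, methionine synthase and S-adenosylmethionine are affected, and folate supply before birth matters for closure of the neural tube. The brain depends on methionine synthase for remethylation, since the betaine-dependent route runs mainly in liver and kidney.

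The RNA was from whole brain of adult male offspring, aged 70 days, of the C57BL/6J strain, with no allele or transgene named. Their mothers drank water with 10% ethanol, or water alone, from the start of gestation until the pups were 10 days old, so every animal had been off ethanol for weeks when its brain was taken. Experiment 1 had 2 ethanol and 2 control arrays with RNA pooled from 3 mice each, and experiment 2 had 3 ethanol and 3 control arrays with RNA pooled from 2 mice each (12 mice per experiment). Pools held different mice, but litters are not stated for them, and the p-values rest on pool-to-pool spread alone. In whole brain, fewer cells of a type and less RNA per cell cannot be told apart.

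Values are deposited log2 levels per probe set, and all differences are ethanol minus control in log2 units. For each probe set the mean of experiment 1 equalled that of experiment 2 to within 5.83e-05, so levels were compared only within an experiment. Differences depended on level over the whole table. By quartile of mean level, from dim to bright, the median difference was 0.04, 0.02, -0.05 and -0.04. Neuronal markers (8 genes) had array means of 12.0 to 12.1 in each group. Over both experiments cerebellar markers were lower on the ethanol arrays in 8 of 8 and choroid plexus markers in 8 of 8 (5 of 8 in experiment 1). Meningeal markers were lower in 6 of 7 (2 of 7 in experiment 1), while pituitary markers were higher in 8 of 8, unevenly between arrays. The array means of the cerebellar list were 10.95 to 10.97 on control and 10.45 to 10.82 on ethanol arrays in experiment 1, and 10.80 to 10.96 and 10.54 to 10.83 in experiment 2. Those of the choroid plexus list were 8.40 to 8.42 and 8.35 to 8.40 in experiment 1, and 8.46 to 8.59 and 8.17 to 8.33 in experiment 2. Those of the pituitary list were 5.82 to 5.97 and 7.23 to 8.02 in experiment 1, and 6.25 to 6.66 and 6.38 to 8.55 in experiment 2. Those of the olfactory mucosa list (7 genes) were 6.68 to 6.73 and 6.67 to 6.78 in experiment 1. In experiment 2 they were 6.05 to 7.93 and 6.08 to 7.89, uneven between arrays of each group. In experiment 2 the control and ethanol array means were also apart for meninges (7.86 to 7.96 and 7.69 to 7.73) and astrocytes (10.93 to 10.96 and 10.86 to 10.89). The same held for oligodendrocytes (11.24 to 11.30 and 11.18 to 11.20) and microglia (8.36 to 8.48 and 8.33 to 8.34). Their part in the results that follow was not tested.

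The promoters of the enzymes range widely in CpG content, and the pair at the ends of that range among the measured enzymes is shown because it holds the member with the smallest p, Mtrr, and the liver-type enzyme Bhmt. The windows, matched for 8 of the 8 enzymes, run from 250 bases before to 50 after the gene start, from RefSeq on GRCm38.p6. The first of the overlapping Mtrr windows lies on the minus strand at chr13:68582120-68582419 and holds 37 CpG dinucleotides, more than 94.4% of 32817 such windows. The Bhmt window lies on the minus strand at chr13:93637709-93638008 and holds 8, against a median of 7 over all windows. Capitals mark CCAAT on either strand, written ATTGG where it lies on the other strand.
Mtrr: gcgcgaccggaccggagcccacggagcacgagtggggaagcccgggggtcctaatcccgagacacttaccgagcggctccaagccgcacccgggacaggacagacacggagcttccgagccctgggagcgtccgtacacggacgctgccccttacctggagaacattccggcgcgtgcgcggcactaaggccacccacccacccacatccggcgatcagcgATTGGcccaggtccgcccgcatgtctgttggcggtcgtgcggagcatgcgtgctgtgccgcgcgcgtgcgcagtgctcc
Bhmt: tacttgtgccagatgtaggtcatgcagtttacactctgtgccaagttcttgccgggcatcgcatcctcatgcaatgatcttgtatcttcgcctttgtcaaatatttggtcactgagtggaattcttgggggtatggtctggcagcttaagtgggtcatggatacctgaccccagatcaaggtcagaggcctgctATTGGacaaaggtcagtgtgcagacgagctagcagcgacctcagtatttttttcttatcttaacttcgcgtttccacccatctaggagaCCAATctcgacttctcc
CpG counts in the other windows were 24 for Mtr, 22 for Cbs, 17 for Shmt1 and 16 for Mthfd1, and for the unmeasured Mat2a and Ahcy 34 and 13. Motifs were searched on either strand, and no motif contains another. CCAAT was in the windows of 8 of the 8 enzymes, against 37.4% of all windows. GGGCGG, the letters of a GC box, was in 7 of 8 (all but Bhmt), against 35.6%. The windows of these 7 hold 13 or more CpG, against the median of 7 over all windows, and GGGCGG itself holds a CpG. No share was taken over windows of like CpG content, so these counts do not set the enzymes apart. TATAAA was only in that of Mat2a (13.6% of all windows) and CACGTG only in that of Cbs (7.15%). A match describes letters in a window and not a bound site. The Mtrr window shares 140 bases with that of Fastkd3, a mitochondrial RNA-binding protein gene that starts in the opposite direction.

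No member passed adjusted p 0.05 over both experiments by limma with Benjamini-Hochberg adjustment over the 21789 probe sets. That call was made for 0% of all probe sets, so it does not set the enzymes apart. At an unadjusted p under 0.05 there was 1 of the 8 member probe sets, which is 12.5%, against 12.4% of all probe sets (7.68% lower and 4.72% higher). That probe set was the one of Mtrr, which was lower. The same fit without moderation gave 1 of 8, against 11.1%. The 8 differences ran from -0.10 for Mtrr to 0.11 for a Bhmt probe set, that is 1.07-fold and 1.08-fold. There were 3 lower (Mtr, Mtrr, Mthfd1) and 5 higher (Shmt1, Cbs and the 3 of Bhmt), where 54.4% of all probe sets were lower. After quantile normalization 6 of the 8 counted as lower, since Shmt1 (-0.03) and Bhmt probe set 10511886 (-0.04) turned. Bhmt probe set 10457114 (0.00) is among the 6 only by a sign lost in rounding.

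**Figure D1:**
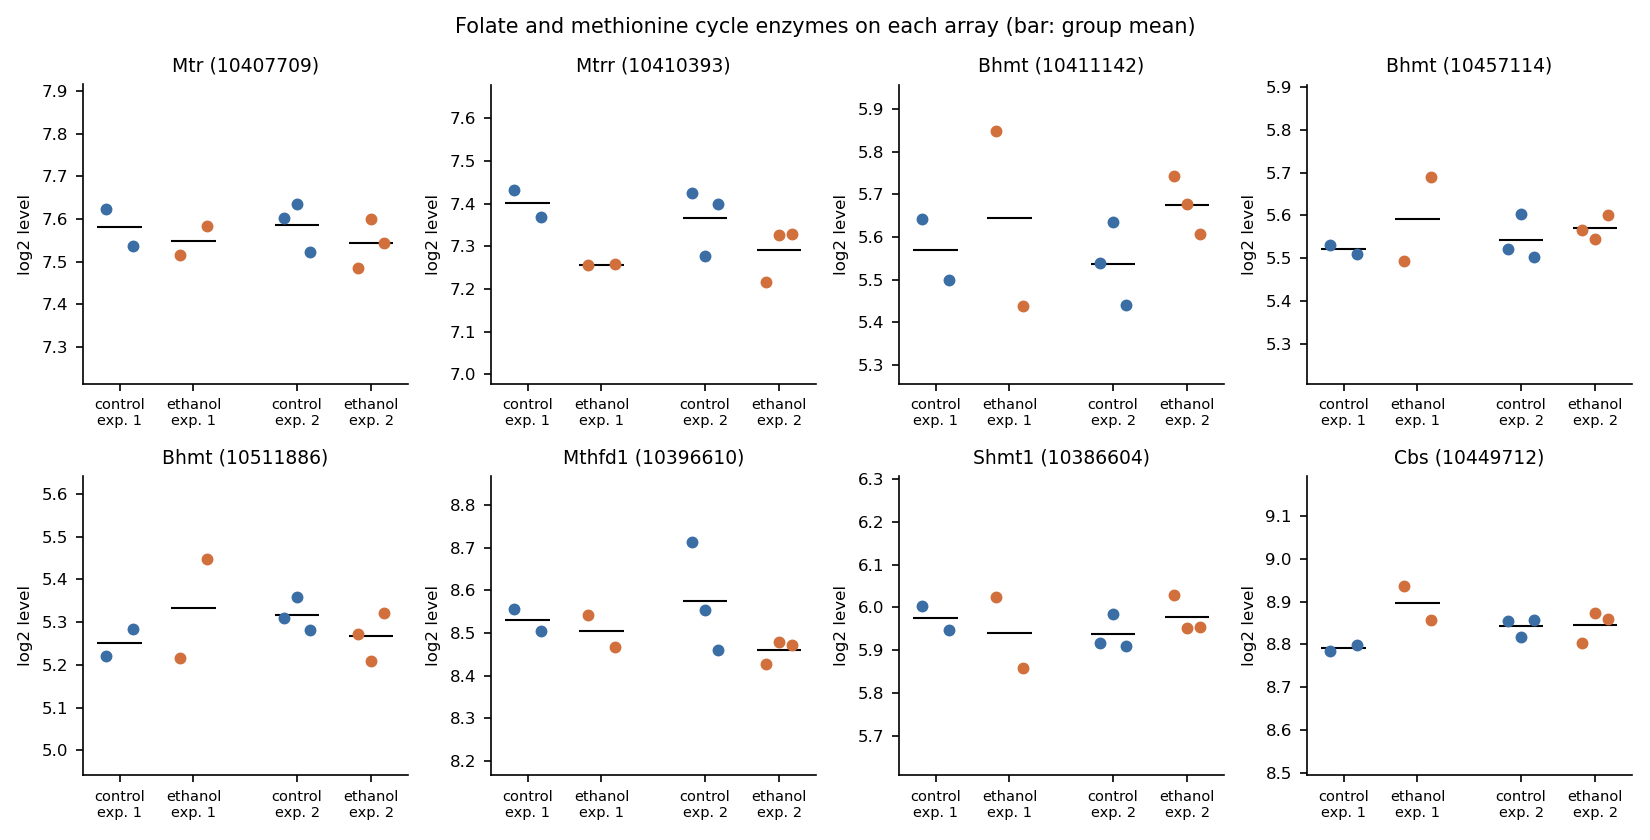
Deposited log2 level (y axis) of the 8 member probe sets on each of the 10 arrays, by experiment and treatment (x axis); points are arrays, bars group means, and all panels have the same span. The groups overlap in experiment 2 in each panel, and only Mtrr and Cbs have separate groups in experiment 1.

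Remethylation of homocysteine is shared by Mtr, Mtrr and Bhmt. Mtrr encodes methionine synthase reductase, which reactivates the oxidised cobalamin of methionine synthase. Its level was 7.43 and 7.37 on the control arrays and 7.26 and 7.26 on the ethanol arrays of experiment 1. In experiment 2 it was 7.42, 7.28 and 7.40 on control arrays and 7.22, 7.33 and 7.33 on ethanol arrays. The groups were apart in experiment 1, as for 19.2% of all probe sets in that direction, and overlapped in experiment 2 through control replicate 2. That array and ethanol replicate 1, the lowest for Mtrr in experiment 2, had high means of the olfactory mucosa list (7.93 and 7.89). The other arrays of experiment 2 had 6.05 to 6.22. A part of olfactory mucosa RNA in the Mtrr values was not tested. Each of the 5 ethanol arrays lay under the control mean of its experiment, and the share of all probe sets with that arrangement was not counted. Mtrr lay at the 49.4th percentile of level, at the border of quartiles with median differences of 0.02 (its own) and -0.05 (the next brighter). The difference was -0.10 ± 0.04 (SE; 95% interval -0.20 to -0.01; limma adjusted p = 0.381, and unadjusted under 0.05), with -0.14 ± 0.07 in experiment 1 and -0.08 ± 0.06 in experiment 2. The unadjusted p stayed under 0.05 in 7 of 18 other settings, and not with each array centred on its median. Fastkd3, the gene across the shared promoter and named for that position, differed by 0.00 ± 0.06 over both experiments.

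Mtr encodes methionine synthase itself, which moves the methyl group of methyltetrahydrofolate onto homocysteine. It read 7.62 and 7.54 on control and 7.51 and 7.58 on ethanol arrays of experiment 1. In experiment 2 it read 7.60, 7.63 and 7.52 on control and 7.48, 7.60 and 7.54 on ethanol arrays. Control and ethanol arrays were interleaved in each experiment. The difference was -0.04 ± 0.04 (95% interval -0.13 to 0.05; adjusted p = 0.713), close to the median of -0.05 for all probe sets of its quartile of level. Over the 10 arrays, after removal of the experiment mean, Mtr and its reductase Mtrr correlated at r = 0.38, a description over arrays that share treatment and processing.

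Bhmt encodes betaine-homocysteine methyltransferase, an enzyme of liver and kidney. Its 3 probe sets lay in the lowest quartile of level, with means of 5.61, 5.56 and 5.29, and they did not move together. Between arrays, probe sets 10457114 and 10511886 correlated at r = 0.82, while 10411142 correlated with them at -0.28 and -0.60 (10 arrays). Probe set 10411142 read 5.64 and 5.50 on control and 5.85 and 5.44 on ethanol arrays of experiment 1. In experiment 2 it read 5.54, 5.63 and 5.44 on control and 5.74, 5.68 and 5.61 on ethanol arrays. Its difference was 0.11 ± 0.07 (95% interval -0.04 to 0.27; adjusted p = 0.524). It was 0.055 without ethanol replicate 1 of experiment 1 and 0.181, with an unadjusted p under 0.05, without ethanol replicate 2, both arrays lying at the opposite ends of its whole range. The other probe sets differed by 0.05 ± 0.05 (10457114) and 0.00 ± 0.05 (10511886), beside a median of 0.04 for their quartile of level. The RefSeq gene table holds a pseudogene, Bhmt-ps1, and the annotation used here does not say which probe sets could pair with it. The array means of 7 liver markers were 6.70 to 6.85 over all groups, a list that shares Ttr (mean level 12.95) with the choroid plexus list, while the other liver markers had mean levels of 5.33 (Alb) to 6.22 (Apoa1).

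The folate enzymes Mthfd1 and Shmt1 load and interconvert the carbon units in the cytosol. Mthfd1, a trifunctional enzyme that joins formate to tetrahydrofolate and converts the product to methylenetetrahydrofolate, read 8.56 and 8.51 on control and 8.54 and 8.47 on ethanol arrays of experiment 1. In experiment 2 it read 8.71, 8.55 and 8.46 on control and 8.43, 8.48 and 8.47 on ethanol arrays. Control replicate 1 stood 0.20 log2 units above the mean of experiment 2, while control replicate 3 lay among the ethanol arrays. The difference was -0.08 ± 0.05 (95% interval -0.19 to 0.03; adjusted p = 0.520), with -0.03 ± 0.08 in experiment 1 and -0.12 ± 0.07 in experiment 2. Without control replicate 1 of experiment 2 it was -0.04 over both experiments, and in experiment 1 alone its sign turned with quantile normalization (0.03). The quartile of level that holds Mthfd1 had a median of -0.05 and 77.3% of its probe sets lower.

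Shmt1 is the cytosolic serine hydroxymethyltransferase, which takes a carbon unit from serine. It read 6.00 and 5.95 on control and 6.02 and 5.86 on ethanol arrays of experiment 1, where the ethanol arrays lay on either side of the controls. In experiment 2 it read 5.92, 5.99 and 5.91 on control and 6.03, 5.95 and 5.95 on ethanol arrays. The difference was 0.01 ± 0.04 (95% interval -0.09 to 0.11; adjusted p = 0.932).

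Cbs encodes cystathionine beta-synthase, which commits homocysteine to transsulfuration and in brain is found mainly in astrocytes. It read 8.79 and 8.80 on control and 8.94 and 8.86 on ethanol arrays of experiment 1, with no overlap, as for 15.1% of all probe sets in that direction. In experiment 2 it read 8.85, 8.82 and 8.86 on control and 8.80, 8.87 and 8.86 on ethanol arrays, and the groups were interleaved. The difference was 0.10 ± 0.06 in experiment 1 (adjusted p = 0.643), 0.00 ± 0.05 in experiment 2 (adjusted p = 0.986) and 0.04 ± 0.04 over both (95% interval -0.04 to 0.13; adjusted p = 0.650). Cbs was higher while the median of its quartile of level was -0.05. The 8 astrocyte markers had array means of 10.87 to 10.96 on control and 10.89 to 10.94 on ethanol arrays in experiment 1. In experiment 2 these were 10.93 to 10.96 and 10.86 to 10.89, with the groups apart. Of the markers, 6 of 8 were lower over both experiments, 4 of 8 in experiment 1 and 8 of 8 in experiment 2.

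Within experiments 0 of the 8 member probe sets had an unadjusted p under 0.05, against 8.95% of all probe sets in experiment 1 and 9.97% in experiment 2 (limma). That count depended on the setting. In experiment 1 Cbs passed at that p after quantile normalization (0.158) and without moderation, and so did a Bhmt probe set without ethanol replicate 2 (10411142, 0.277) and the others of Bhmt without ethanol replicate 1 (10457114, 0.170, and 10511886, 0.195). In experiment 2 Mthfd1 passed without control replicate 3 (-0.17). On the ethanol arrays 4 of 8 were lower in experiment 1 and 4 of 8 in experiment 2, against 51.8% and 54.9% of all probe sets. The sign was the same in both experiments for 6 of 8, and the exceptions were Shmt1 and Bhmt probe set 10511886. The difference between the experiments' ethanol differences, experiment 2 minus experiment 1, ran from -0.13 ± 0.10 for that Bhmt probe set to 0.07 ± 0.09 for Shmt1. It had an unadjusted p under 0.05 for 0 of 8, against 6.57% of all probe sets, and the adjusted p were 0.865 or more. Without ethanol replicate 1 of experiment 1, Bhmt probe sets 10411142 (0.27) and 10511886 (-0.24) passed at that unadjusted p.

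**Figure D2:**
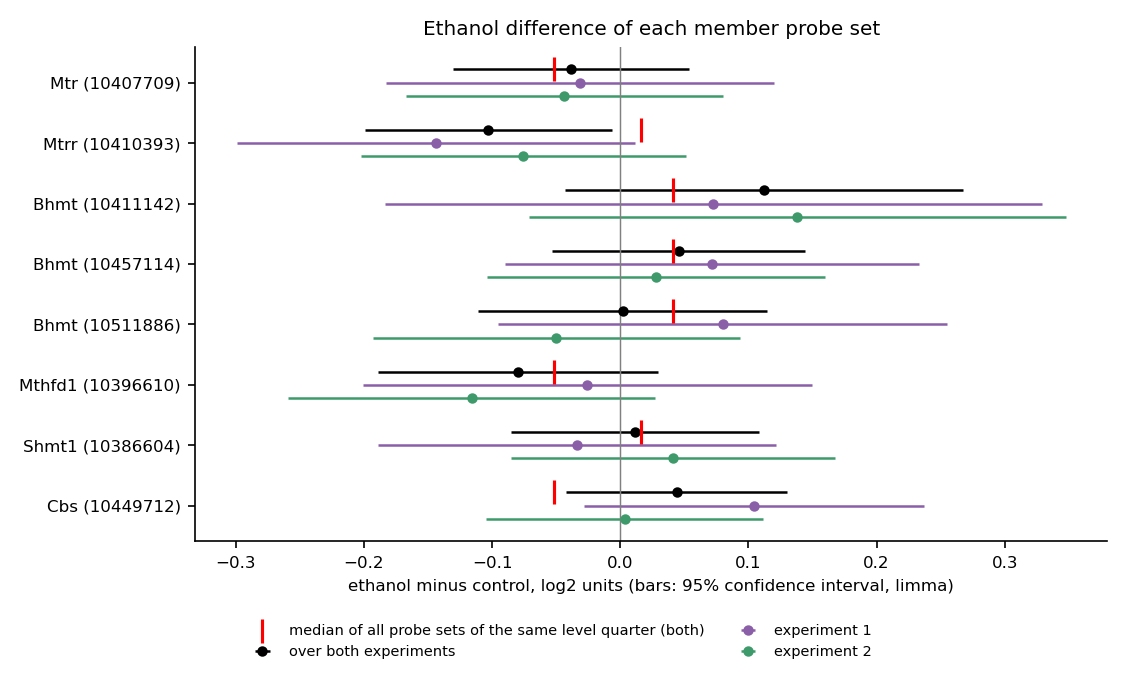
Ethanol minus control in log2 units (x axis) for each member probe set (y axis), over both experiments and within each, with 95% confidence intervals from limma; red ticks mark the median of all probe sets of the same quartile of mean level. Only the interval of Mtrr over both experiments, -0.20 to -0.01, leaves out 0.

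The rest of the one-carbon pathway was described with lists of 66 genes, of which 60 had a probe set with a single symbol (that with the highest mean was used). Over both experiments 43 of 60 were lower, with a median of -0.04, against 54.5% of all genes and a median of -0.01. By level, 37 of the 44 above the median level were lower (84.1%, against 77.4% of all probe sets there) and 6 of the 16 below it (37.5%, against 31.4%). None passed adjusted p 0.05, as for 0% of all genes, and the unadjusted limma p was under 0.05 for 7 lower and 4 higher genes, where Slc19a1 counts as higher by the brighter of its 2 probe sets, which differ in sign. All genes gave 7.83% lower and 4.77% higher at that p. In experiment 1, 31 of 60 were lower (51.9% of all genes), with 2 lower and 3 higher at that p against 4.8% and 4.16%. In experiment 2, 46 of 60 were lower (55% of all genes), with 5 lower and 1 higher against 6.36% and 3.67%. These counts depend on scaling. Over both experiments there were 2 lower and 1 higher after quantile normalization and 2 lower and 4 higher with arrays centred on their medians. Centring gave 0 lower and 6 higher in experiment 1, and 1 lower and 4 higher in experiment 2. Of the 60, 22 were lower in experiment 1 after quantile normalization. Over both experiments, leaving out ethanol replicate 2 of experiment 1 gave 12 lower and ethanol replicate 3 of experiment 2 gave 4 lower. Without ethanol replicate 1 or control replicate 1 of experiment 1, or control replicate 2 of experiment 2, there were 2 higher. In experiment 1 the count ran from 0 lower (without control replicate 2) to 4 (without ethanol replicate 1), and from 1 higher (without control replicate 1) to 5 (without ethanol replicate 2). The lower count of experiment 2 ran from 3 (without ethanol replicate 2 or control replicate 2) to 9 (without control replicate 3).

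**Figure D3:**
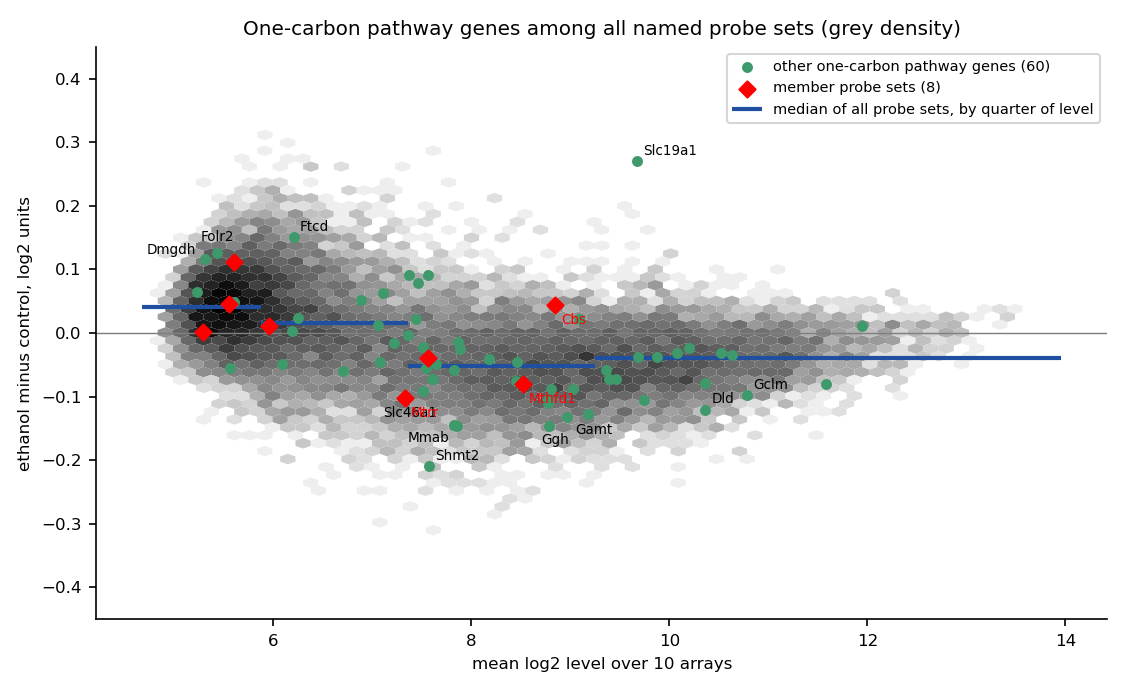
Ethanol minus control over both experiments in log2 units (y axis) against mean log2 level over 10 arrays (x axis); grey shows the density of all named probe sets on a log scale, green points the 60 other pathway genes, red diamonds the 8 member probe sets, and blue lines the median of each quartile of level. Labels name the 11 pathway genes at unadjusted p under 0.05 and 3 members; Slc19a1 (0.27) and Shmt2 (-0.21) lie farthest from the blue lines.

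Among folate uptake and retention genes 4 of 7 were lower, with Slc19a1 again taken by its brighter probe set. Ggh, the gamma-glutamyl hydrolase that trims folate polyglutamates, had the smallest p of the pathway. It read 8.85 and 8.87 on control and 8.79 and 8.65 on ethanol arrays of experiment 1, and 8.83, 8.84 and 8.92 against 8.71, 8.70 and 8.74 in experiment 2. The groups were apart in each experiment, as for 2.82% of all probe sets in that direction. Ggh, and below Folr2, Shmt2, Gclm and Dmgdh, were named for their p over both experiments, from the same values. Such shares are thus no further support for them, and they were not counted by level. The difference was -0.15 ± 0.04 (1.11-fold, adjusted p = 0.306), and the 2 probe sets of Ggh held the same values and count as 1. Slc46a1, the proton-coupled folate transporter, differed by -0.15 ± 0.07 (adjusted p = 0.402).

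Slc19a1, the reduced folate carrier, gave opposite results in its 2 probe sets. Probe set 10364249 read 9.32 and 9.70 on control and 10.06 and 9.63 on ethanol arrays of experiment 1, and 9.60, 9.36 and 9.72 against 9.64, 9.96 and 9.76 in experiment 2. Its highest values were on the first ethanol array of experiment 1 and the second of experiment 2, the arrays with the highest means of the pituitary list (8.02 and 8.55). The second ethanol array of experiment 1, with the next highest pituitary mean (7.23), read 9.63, under a control array at 9.70. A part of pituitary RNA in this probe set was not tested. The difference was 0.27 ± 0.10 (adjusted p = 0.347). Probe set 10364239 read 9.02 and 9.16 against 9.01 and 8.88 in experiment 1, and 9.12, 9.05 and 9.002 against 9.002, 8.94 and 9.01 in experiment 2, with a difference of -0.10 ± 0.05 (adjusted p = 0.398). No direction is given for the gene.

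The folate receptors also differed from each other. Folr2 (5.29 and 5.45 against 5.52 and 5.49, then 5.42, 5.30 and 5.41 against 5.51, 5.49 and 5.49) lay in the lowest quartile of level and was higher by 0.13 ± 0.04 (adjusted p = 0.326). Its groups were apart in each experiment, as for 1.47% of all probe sets in that direction, by the values for which it was named. Folr1, the receptor of the choroid plexus, differed by 0.11 in experiment 1 and by -0.20 in experiment 2, where the choroid plexus markers, Folr1 among them, were lower in 8 of 8.

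Of 11 other folate enzymes measured, 9 were lower. Shmt2, the mitochondrial counterpart of Shmt1, had the most negative difference of the pathway. It read 7.71 and 7.68 on control and 7.27 and 7.62 on ethanol arrays of experiment 1, and 7.72, 7.60 and 7.67 against 7.57, 7.52 and 7.35 in experiment 2. Each ethanol array lay under each control array of its experiment, as for 2.82% of all probe sets, by the values for which Shmt2 was named. The difference was -0.21 ± 0.07 (1.16-fold, adjusted p = 0.315), and it was -0.21 after quantile normalization. Mthfd1l, the mitochondrial formate-producing relative of Mthfd1, differed by -0.09 ± 0.05 (adjusted p = 0.495). Ftcd, formimidoyltransferase cyclodeaminase of histidine breakdown, was dim and differed by 0.15 ± 0.06 (adjusted p = 0.376). Dld, the lipoamide dehydrogenase shared by glycine cleavage and the pyruvate dehydrogenase complex, differed by -0.12 ± 0.04 (adjusted p = 0.334), and 4 of 4 glycine cleavage genes were lower, among bright probe sets of which 77.4% were lower. In experiment 1 that was 2 of 4.

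**Figure D4:**
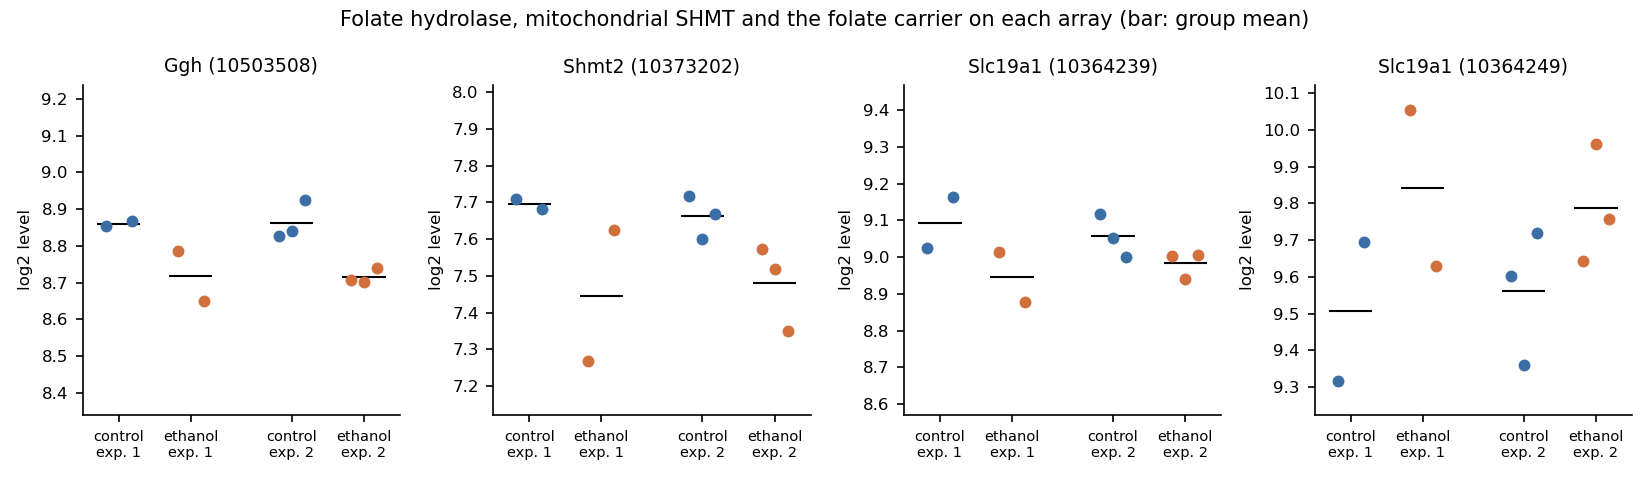
Deposited log2 level (y axis) of Ggh, Shmt2 and both probe sets of Slc19a1 on each array, by experiment and treatment (x axis); points are arrays and bars group means. Ggh and Shmt2, both named for a p from the same values, have separate groups in each experiment, as for 2.82% of all probe sets in that direction. The bars of the Slc19a1 probe sets differ in opposite directions.

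Relatives of the methionine cycle enzymes gave no call either. Mat1a, the liver methionine adenosyltransferase, differed by 0.06 ± 0.05 (adjusted p = 0.593) and Bhmt2, which uses S-methylmethionine, by 0.05 ± 0.05 (adjusted p = 0.661), both in the lowest quartile of level. Ahcyl1 and Ahcyl2, proteins related to Ahcy, differed by 0.01 ± 0.04 (adjusted p = 0.935) and -0.08 ± 0.04 (adjusted p = 0.460). After Cbs, cystathionine gamma-lyase (Cth) completes the path to cysteine, and it differed by 0.09 ± 0.06 (adjusted p = 0.527). Cth read 7.30 and 7.24 on control and 7.46 and 7.498 on ethanol arrays of experiment 1 and overlapped in experiment 2. Mat1a, Bhmt2 and Cbs had the same arrangement, and 15.1% of all probe sets were apart upward in experiment 1. Gclm, a subunit of the enzyme that starts glutathione synthesis from cysteine, differed by -0.10 ± 0.04 (adjusted p = 0.354). Its groups were apart in each experiment, as for 2.82% of all probe sets in that direction, by the values for which it was named.

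Cobalamin is the cofactor of methionine synthase, and 9 of the 9 genes for its uptake and handling were lower, with a median of -0.05 and a range of -0.15 to -0.01. Each lies above the median level, where 77.4% of all probe sets were lower and the quartile medians were -0.05 and -0.04. Only Mmab, the adenosyltransferase that makes the other active form of cobalamin, had an unadjusted p under 0.05 (-0.15 ± 0.06, adjusted p = 0.388), against 12.4% of all probe sets. Within experiment 1 the cobalamin genes were lower in 5 of 9. Gamt, which uses S-adenosylmethionine to make creatine, differed by -0.13 ± 0.05 (adjusted p = 0.362), and Dmgdh, which breaks down the dimethylglycine made by Bhmt, by 0.12 ± 0.04 (adjusted p = 0.316). Dmgdh was dim, at a mean of 5.31. The Dmgdh groups were apart in each experiment, as for 1.47% of all probe sets in that direction, by the values for which it was named. Serine synthesis genes were lower in 2 of 3, and the polyamine genes Odc1 and Srm measured here were lower in 1 of 2.

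The genes with the pattern most like each member were taken over the 10 arrays, after removal of the experiment mean, among 10893 or 10894 probe sets above the median level. They are a description with no p, since the highest of many correlations is always high and arrays share treatment and processing. Mthfd1 was most like Mog, a myelin protein of oligodendrocytes (r = 0.97, rho = 0.89, r = 0.87 without the 2 arrays farthest from the median of Mthfd1). Its second match was Cul1, which is not in the oligodendrocyte list (r = 0.93, rho = 0.77, r = 0.62 without those 2 arrays). Relative to the mean of experiment 2, control replicate 1 had 0.20 for Mthfd1 and 0.22 for Mog, and ethanol replicate 1 had -0.09 and -0.12. With the mean of 7 oligodendrocyte markers Mthfd1 had r = 0.60 and rho = 0.56. That mean includes Mog. Over both experiments 5 of the 7 markers were lower, from -0.17 for Ermn through -0.12 for Mog (adjusted p = 0.375) to 0.01 for Mbp and 0.02 for Mobp.

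**Figure D5:**
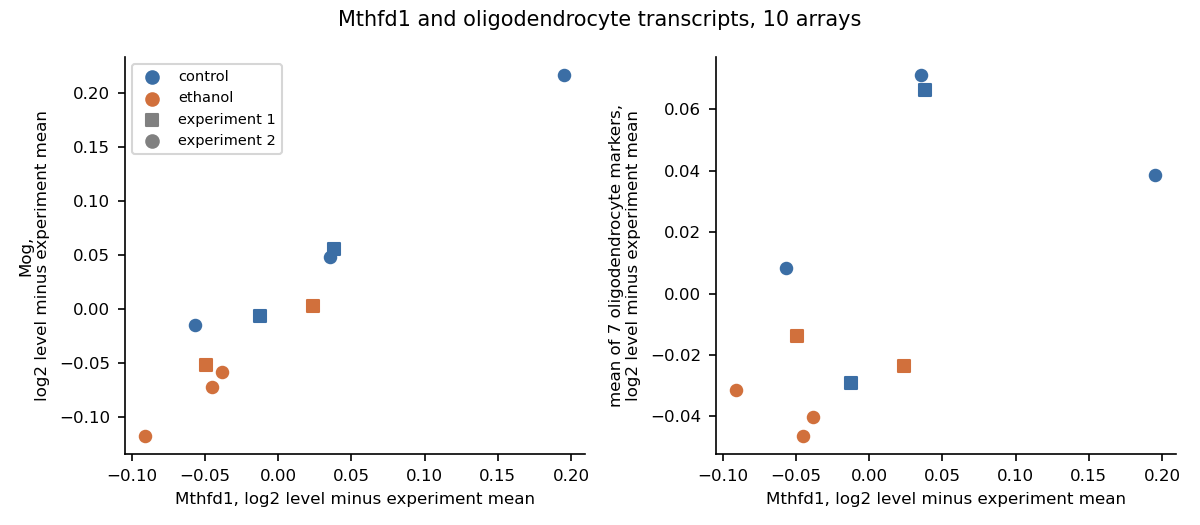
Log2 level minus the experiment mean of Mog (left, y axis) and of the mean of 7 oligodendrocyte markers (right, y axis) against Mthfd1 (x axis); each point is 1 of 10 arrays. Mog (r = 0.97) was chosen as the gene most like Mthfd1 and is 1 of the 7 markers in the mean (r = 0.60), so the panels are not independent; control replicate 1 of experiment 2 lies at the far right of each panel.

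Mtrr was most like Mrps27, a mitochondrial ribosomal protein (r = 0.94, rho = 0.95, r = 0.92 without the farthest 2 arrays), and Oprl1, the nociceptin receptor (r = 0.94, rho = 0.95). Mtr was most like Psmc6, a proteasome ATPase (r = 0.96, rho = 0.95), and Zfp740 (r = 0.94, rho = 0.96). Cbs was most like Wtip (r = 0.90, rho = 0.79, r = 0.70 without the farthest 2 arrays) and Ccng2 (r = 0.88, rho = 0.89). For Shmt1 and Bhmt probe set 10411142 the highest r were 0.878 (9930021J03Rik and Parl) and 0.885 (Pus1), and they were 0.714 to 0.733 without the farthest 2 arrays. For the other Bhmt probe sets they were 0.92 (Chd3) and 0.955 (Srsy, in 2 probe sets).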

How the data were processed

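Levels were measured on Affymetrix whole-transcript arrays from 200 ng of total RNA, per the labels' protocols. The authors deposited log2 values per probe set (35556 on each of 10 arrays, from 4.27 to 15.4). The software named per the submitters' processing notes is Partek 6.6. How background and scale were treated, and whether a batch step was applied, is not given in the sources used here. Since each probe set had equal means in both experiments, the deposited values hold no difference in level between experiments. The step that made them equal is not described. Precision is limited by the number of arrays (median standard error 0.0519 over both experiments).

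Arrays were grouped from their titles. Names came from GEO's platform annotation, where 21789 had 1 symbol, 1621 had several and 12146 were not listed. The symbols of the members matched the RefSeq table of GRCm38.p6 by Entrez identifier. limma 3.58.1 in R 4.3.3 (lmFit, eBayes) fitted all 21789, with terms for experiment and treatment over both experiments (7 residual degrees of freedom) and with 4 group means for the differences within and between experiments (6). Adjusted p are Benjamini-Hochberg over all 21789 at 0.05. The code of the fits was tested on simulated data with independent normal noise. These lacked the dependence on level and the tissue differences of the arrays, so that test does not bear on the results here. The members and lists were chosen with earlier results of these data known. Named were the members, pathway genes at unadjusted p under 0.05 over both experiments (at most 12), relatives of the members, and per member the 2 most alike probe sets. Fastkd3 and Folr1 stand outside this rule and were named after their values were seen. Other settings tried were quantile normalization, centring each array on its median, 2 cuts on dim probe sets, all probe sets, another prior, array weights, no moderation, a replicate block, each experiment alone, and each array left out. Figures were drawn with matplotlib 3.10.9.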

Additional observations from a re-analysis of the deposited data

How the results depend on the processing

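Of 584 values of the member probe sets under other settings, 551 kept their direction and 0 passed adjusted p 0.05. Many of the 551 could not have turned. Cuts on dim probe sets, all probe sets, another prior, no moderation and the replicate block leave the difference itself unchanged. A difference within 1 experiment is also unchanged when an array of the other is left out or it is fitted alone. The 551 is thus no measure of how stable the directions are. For the 4 comparisons over all probe sets limma called 0, and 67 of 77 other settings gave that count too. The exceptions were 1 with experiment 1 fitted alone, and in experiment 2 3 with another prior and 2 with array weights. With single arrays left out the count ran from 0 to 1 over both experiments, 0 to 235 in experiment 1, 0 to 1 in experiment 2 and 0 to 94 for the difference between experiments, where the 235 and 94 came without ethanol replicate 1 of experiment 1, with the lone remaining ethanol array assumed to vary like the other groups. At an unadjusted p under 0.05 there were 2703 over both experiments and 2172 in experiment 2, against 1575 and 1345 with only the brighter probe sets (over the median) tested, and 3276 in experiment 2 with array weights. Experiment 1 gave 1951, and 1154 with array weights, 1061 fitted alone and 1126 without control replicate 1. The difference between experiments gave 1432, and 2692 without ethanol replicate 1 of experiment 1, 2423 with all probe sets and 830 with only the brighter ones.

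Signs turned after quantile normalization over both experiments for Bhmt probe sets 10457114 (0.0000) and 10511886 (-0.035) and Shmt1 (-0.0327), in experiment 1 for Mthfd1 (0.0253) and in experiment 2 for Bhmt 10457114 (-0.0101). Median centring turned Mthfd1 in experiment 1 (0.0006), and array weights turned Bhmt 10511886 (-0.0293) and Ahcyl1 (-0.0047) over both experiments. The cause was not tested. With 1 array left out, values that turned ran over both experiments from -0.0453 to 0.0255 for Bhmt 10511886, -0.0072 to 0.0436 for Shmt1 and -0.0109 to 0.03 for Ahcyl1. In experiment 1 they ran from -0.1319 to 0.2774, -0.0267 to 0.1703 and -0.0354 to 0.195 for Bhmt 10411142, 10457114 and 10511886, -0.0752 to 0.0126 for Mtr, -0.062 to 0.0108 for Mthfd1 and -0.1161 to 0.0489 for Shmt1, and in experiment 2 from -0.0105 to 0.0248 for Cbs. Between experiments they ran from -0.0561 to 0.0317 for Mtr, -0.1393 to 0.27 and -0.1423 to 0.0547 for Bhmt 10411142 and 10457114, and -0.0077 to 0.1573 for Shmt1.

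No pairing was taken from the replicate numbers of the arrays. The correlations of same-numbered deviations were -0.05 in experiment 1 and 0.01, -0.15 and 0.23 in experiment 2. They cannot settle whether arrays were paired, since deviations from a mean of 2 or 3 arrays depend on each other. With the replicate block Mtrr differed by -0.10 over both experiments (limma adjusted p = 0.433), and 0 of all probe sets passed in each comparison fitted. Mtrr and the 3 Bhmt probe sets were at or below the median level, as was Shmt1, and have no value under the stricter filter.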
